A study of Mus musculus with 18 samples.

Results

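MicroRNA genes formed a small set of entries in the Hydro-tRNA-seq data of the mouse hippocampus, an assay that reads RNA of tRNA size. The table of normalized read counts holds 3574 entries, and 135 of them have a name that starts with Mir. The 51 entries described here were selected on their measured signal: their normalized counts, summed over the 18 libraries, came to 180 or more. The rule used every library and no contrast between groups. An entry near the threshold can still reach it through 1 group in which its signal is high. Counts of entries that differ between groups are therefore not free of the selection. Of the 51, 9 belong to the let-7 family, and Mir3084-1 held nearly the same reads as Mir3084-2 (a difference of 1.60%), so 50 entries were counted. Just inside the threshold were Mir7b at 180.3, Mir129-1 at 196.6 and Mir29a at 197.2, and just outside it were Mir682 at 171.7, Mir410 at 165.0 and Mir433 at 154.7. The 84 Mir entries below the threshold held 0.788% of the signal of all Mir entries.

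Each library came from 1 male mouse and is named by its group and mouse number. The 5xFAD line, a model of Alzheimer's disease, carries human APP with the Swedish, London and Florida mutations and a doubly mutant human presenilin-1 under the neuronal Thy-1 promoter, and WT mice had a B6SJL background. At 6 months of age, all mice received into the CA1 and dentate gyrus of both hippocampi a neuron-targeted adeno-associated virus that also expresses GFP, with an H1-driven shRNA that is either the control (shCT) or directed against RTP801 (shRTP801), and both hippocampi were taken 4 weeks later. RTP801, the product of Ddit4, is a stress-induced protein. There were 3 5xFAD mice with shCT (5xFAD shCT), 6 with shRTP801 (5xFAD shRTP801), 5 WT mice with shCT (WT shCT) and 4 with shRTP801 (WT shRTP801). Every group thus carries a virus, GFP and an shRNA, and no uninjected group enters. The Ddit4 mRNA is longer than the RNA sequenced, so the knockdown is not checked by these libraries. In whole tissue, fewer cells of a type and less RNA per cell cannot be told apart.

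A microRNA is made from a long primary transcript, from which Drosha cuts a hairpin precursor. Dicer then cuts the hairpin to the mature microRNA, which guides Argonaute to mRNAs that pair with its seed, bases 2 to 8. Mature microRNAs are far shorter than tRNAs, whereas hairpin precursors are about as long as a tRNA. Here RNA of 60 to 100 nt was cut from a gel before it was broken up by alkaline hydrolysis, so the reads come from fragments of RNA of that size. The annotated genes of the 50 entries that RefSeq lists, Mir3084-1 included, were 65 to 147 nt long (median 88), with 38 between 60 and 100 nt and 12 longer. Many genes that carry a Mir name overlap another small RNA. Small nucleolar RNAs (snoRNAs) guide the modification of other RNAs. Those of the C/D kind carry a box C, which holds UGAUGA, near one end and a box D, CUGA, near the other.

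Sequences were taken from RefSeq (GRCm38.p6), in which 49 entries matched by symbol, Mir3535 matched as a synonym of Gm24148, and Mir1957a had no match. The first set is shown because these 4 hairpins held most of the reads in entries that overlap or resemble another small RNA. Capitals mark the mature microRNA inside the hairpin.
Mir5121: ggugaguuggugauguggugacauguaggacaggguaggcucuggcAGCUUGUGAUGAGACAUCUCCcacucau
Mir3535: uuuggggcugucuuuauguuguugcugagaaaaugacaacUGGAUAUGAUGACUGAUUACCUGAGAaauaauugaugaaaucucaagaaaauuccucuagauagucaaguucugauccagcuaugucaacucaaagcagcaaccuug
Mir677: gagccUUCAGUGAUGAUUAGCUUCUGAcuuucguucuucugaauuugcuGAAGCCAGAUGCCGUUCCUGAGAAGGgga
Mir1983: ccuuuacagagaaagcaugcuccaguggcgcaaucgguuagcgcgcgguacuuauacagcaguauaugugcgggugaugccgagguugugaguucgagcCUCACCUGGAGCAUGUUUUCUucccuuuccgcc

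The second set shows the families whose levels are compared between loci below, with the seed in capitals. All 9 let-7 entries share the seed GAGGUAG. Mirlet7c-1 and Mirlet7c-2 have the same 5p sequence, as do Mirlet7f-1 and Mirlet7f-2, and the sequences below differ outside the seed.
let-7a-5p: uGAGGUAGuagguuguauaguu
let-7b-5p: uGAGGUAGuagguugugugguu
let-7c-5p: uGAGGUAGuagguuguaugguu
let-7d-5p: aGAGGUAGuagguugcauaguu
let-7f-5p: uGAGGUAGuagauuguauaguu
let-7g-5p: uGAGGUAGuaguuuguacaguu
let-7i-5p: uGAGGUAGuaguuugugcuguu
The 4 miR-29 entries share the seed AGCACCA, and Mir181a-1 and Mir181b-1 share ACAUUCA.
miR-29a-3p: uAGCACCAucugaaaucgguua
miR-29b-3p: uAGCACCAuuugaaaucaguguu
miR-29c-3p: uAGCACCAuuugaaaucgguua
miR-181a-5p: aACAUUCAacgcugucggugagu
miR-181b-5p: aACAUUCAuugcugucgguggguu
The last set gives other microRNAs whose group values are described.
miR-1298-5p: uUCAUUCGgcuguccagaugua
miR-219a-5p: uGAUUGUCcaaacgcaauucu
miR-26a-5p: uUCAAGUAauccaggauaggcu
miR-24-3p: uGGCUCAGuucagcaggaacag
miR-129-5p: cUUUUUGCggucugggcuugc

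The libraries held 18126374 to 34488918 reads. In 3 of them, WT shCT 5, WT shRTP801 4 and 5xFAD shRTP801 7, mitochondrial tRNA made up less than 1% of the reads and mature tRNA 98.0 to 98.7%, against 8.59 to 39.8% and 31.9 to 85.8% in the other 15. These 3 also held the fewest microRNA reads, 1159, 1934 and 810, against 7186 to 86557 elsewhere. Of the 50 entries, 49 had a lower mean level in these libraries than in the other 15, and 40 were lower by 10 times or more. Mir1957a was the exception, at 2.45 reads per 1000000 reads of the library (RPM) in the 3 and 1.21 RPM in the 15. In all, 13 entries were detected in all 18 libraries and 44 in all of the 15. Group values are therefore also given without these 3 libraries, and their part in the group differences was not tested beyond that.

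Few entries held most of the microRNA reads. Mir5121 alone made up 50.3% of the signal of the 50 entries and Mir3535 25%, so 2 entries held 75.4%. Mir6236 added 7.83% and Mir677 6.19%, and the first 10 entries together held 95.4%. The other 40 shared the remaining 4.59%. The 9 let-7 entries together held 2.00%, Mir29b-2 1.55%, Mir1298 1.16% and Mir219a-2 0.838%.

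The make-up differed widely between mice. Mir5121 took 6.33 to 68.9% of the microRNA reads over the 15 libraries, and 0 to 0.517% in the 3 libraries set apart. In those 3, the entries Mir6236 and Mir6240 took 56.3 to 71.5%, and whether their reads come from microRNA hairpins was not tested. By group, Mir5121 held 58.9% of the microRNA signal of 5xFAD shCT and 38.1% of that of 5xFAD shRTP801 mice, and 41.5 and 56.3% with shCT and shRTP801 in WT mice. Mir3535 held between 22.8 and 27.4% in each group.

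**Figure D1:**
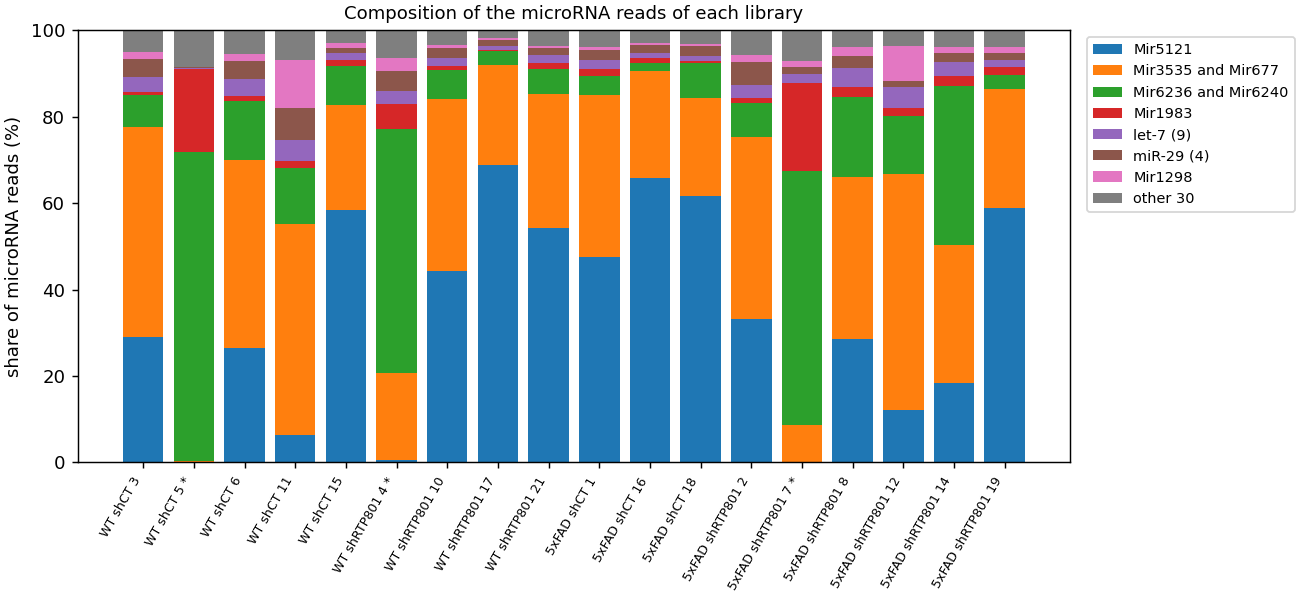
Share of microRNA reads (%, vertical axis) taken by each entry or group of entries in each of the 18 libraries (1 bar per mouse). Asterisks mark the 3 libraries with less than 1% mitochondrial tRNA, in which Mir6236 and Mir6240 held 56.3 to 71.5% of the microRNA reads and Mir5121 almost none, whereas Mir5121, Mir3535 and Mir677 together were the tallest part of each other bar.

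Of the 50 entries, 6 overlap the span of another small RNA gene in RefSeq, and they held 52.4% of the microRNA signal, nearly all of it from Mir5121. The Mir5121 hairpin lies in Rpl13a, a ribosomal protein gene that hosts snoRNAs. Its positions 47 to 74 are shared with Snord33, a C/D snoRNA that guides methylation of ribosomal RNA, and all 21 bases of the mature sequence (positions 47 to 67, the capitals above) fall inside the shared 28 nt. Mir5121 held 354277 reads in all and Snord33 487165. The ratio of Mir5121 to Snord33 reads had a median of 0.719 and ran from 0.369 to 0.815 over the 15 libraries with at least 20 reads of each. On the log2 scale both levels moved together over the 18 libraries (Pearson's r = 0.996, a description over libraries that share depth and RNA make-up). Whether reads at Mir5121 come from a microRNA hairpin or from the snoRNA cannot be told apart in a table of reads per gene.

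Mir1983 spans a whole tRNA gene. Its hairpin holds n-TItat14, an isoleucine tRNA with the anticodon TAT, at positions 19 to 112, and 13 of the 21 bases of the mature miR-1983 lie within it. The table names tRNA genes in another way, so which entry is n-TItat14 is not settled, and tRNA-Ile-TAT-2-1 was taken with its values known. Mir1983 had 8560 reads, and the partial precursor reads of tRNA-Ile-TAT-2-1 came to 4104. Mir1983 was the higher of both in all 18 libraries, with a median ratio of 1.97 over 14 libraries. Their log2 levels had an r of 0.930 over 18 libraries and 0.981 over 15. No r was taken for the partial precursors of tRNA-Ile-TAT-1-1, tRNA-Ile-TAT-2-2 and tRNA-Ile-TAT-2-3, so these values do not single out tRNA-Ile-TAT-2-1. Isoleucine TAT tRNAs are made from precursors with an intron.

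The other 4 overlapping entries were less abundant. Mir1291 shares 73 nt with Snora34, and the entries held 3360 and 3395 reads. Mir1843a shares 64 nt with Scarna3b, with 730 and 746 reads. Mir664 shares 64 nt with Snora36b, with 374 and 500 reads, and Mir3084-2 shares 56 nt with Snora19, with 812 and 3238 reads. Snora34, Snora36b and Snora19 are H/ACA snoRNAs, which guide pseudouridylation. For Mir1291 and Mir1843a, the reads of the microRNA and of the other gene, summed over the libraries, differed by 1.03 and 2.15%.

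Mir3535 and Mir677 overlap no other small RNA gene in RefSeq, the only annotation searched, but their hairpins hold the letters of a C/D snoRNA. For Mir3535 the search left out Gm24148, the RefSeq gene to which it was matched. UGAUGA was searched on both strands of the 1005 mouse hairpins in the RefSeq table and was found in 27 (2.69%) on the hairpin strand and 11 (1.09%) on the other strand. Of 47 entries with a hairpin, 3 held it on the hairpin strand, namely Mir3535, Mir5121 and Mir677, and 0 on the other. UGAUGA followed by CUGA at least 10 nt downstream was found in 5 of the 1005 hairpins (0.498%), among them Mir3535 and Mir677, and in 1 (0.0995%) on the other strand. In Mir677, UGAUGA lies at positions 11 to 16 and the last CUGA at 67 to 70 of 78. In Mir3535, UGAUGA lies at 47 to 52 and 73 to 78 and the last CUGA at 112 to 115 of 147. A match is a description of the letters and not of a site.

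In this table, Mir3535 and Gm24148, which RefSeq lists as 1 gene, had the same reads in every library (175929 in all). Mir677 and Gm50449 had the same reads too (43644 in all). Mir3535 lies in Ncl, the gene of nucleolin, and Mir677 in Atp5b, a subunit gene of the ATP synthase. Both entries together held 31.2% of the microRNA signal. Their log2 levels had an r of 0.977 over 18 libraries and 0.818 over 15, and Mir677 held 0.181 to 0.705 times the reads of Mir3535 over 16 libraries. Mir6236 and Mir6240, on different chromosomes, held 8.15% together and had an r of 0.892, with 15.9 to 38.4 reads of Mir6236 to each read of Mir6240.

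**Figure D2:**
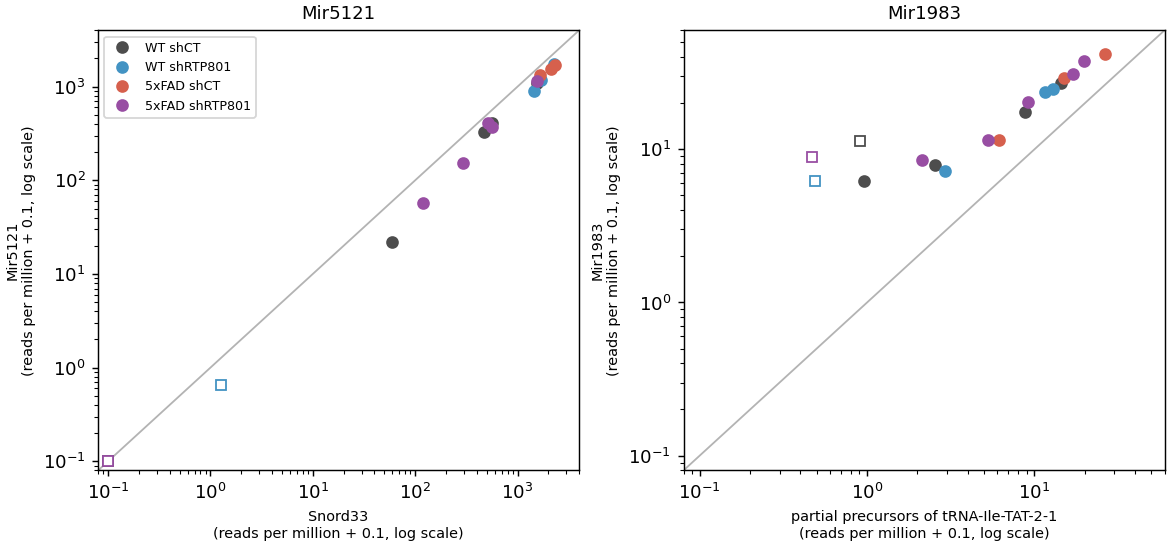
Level of microRNA entries (vertical axes) against that of another small RNA entry (horizontal axes), both in RPM + 0.1 on log scales, 1 point per library and coloured by group. Open squares are the 3 libraries with less than 1% mitochondrial tRNA and the grey line is equality. Mir5121 followed Snord33 at a median of 0.719 times its reads. Mir1983 lay above the partial precursor reads of tRNA-Ile-TAT-2-1, a partner chosen with its values known, in every library.

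After these entries, 40 remained for which neither an overlap with another small RNA gene in RefSeq nor both boxes were found. Mir6236 and Mir6240 were left out of the 40 by choice, although no such overlap was found for either. Both belong to a list of 5 entries grouped as named after other noncoding RNA, and Mir1839 of that list stayed among the 40. Of the 40, Mir1957a had no RefSeq match, so it was checked for neither. For Mir708, which had no hairpin sequence, the boxes were not checked. The 40 held 8.24% of the microRNA signal. Mir29b-2 was the highest of them, with 10814 reads, followed by Mir1298 with 8037, Mir219a-2 with 5887, Mirlet7c-2 with 4600 and Mirlet7a-1 with 3512. By the mean share of the microRNA reads per library, Mir1298 (1.90%) was above Mir29b-2 (1.67%) and Mirlet7c-2 (0.879%) above Mir219a-2 (0.780%). Per 100 nt of gene, the mean level was 28.8 RPM for Mir29b-2, 18.2 for Mir1298, 13.1 for Mir219a-2, 10.9 for Mirlet7c-2 and 8.22 for Mirlet7a-1. The lowest were Mir7b at 0.438, Mir8114 at 0.533 and Mir29a at 0.563 RPM per 100 nt.

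Hairpins from 1 transcript were not equally represented, though both hairpins of such a pair are made together. Mir29b-2 and Mir29c, whose mature products target collagen and other matrix mRNAs, come from A330023F24Rik. Mir29b-2 had 4.89 times the reads of Mir29c per length, but the ratio of reads ran from 1.19 to 21.2 over 15 libraries. With the reads of all libraries pooled, Mir29b-1 had 13.7 times the level of its neighbour Mir29a per length, and the ratio of reads ran from 4.75 to 10, with a median of 7.64, over the 5 libraries with at least 20 reads of each. As the sequences above show, mature miR-29b and miR-29c share their seed and differ toward the 3′ end. Reads within miR-29b-3p, which Mir29b-1 and Mir29b-2 share, fit both of these loci.

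The let-7 microRNAs, which accumulate as cells differentiate, were uneven as well. In the cluster of Mirlet7a-1, Mirlet7f-1 and Mirlet7d, Mirlet7a-1 had 5.89 times the level of Mirlet7f-1 and 5.54 times that of Mirlet7d per length. Mirlet7c-2 had 3.41 times the level of Mirlet7b, its neighbour in Lncppara. The entries of loci with the same mature sequence differed too: Mirlet7c-2 had 7.15 times the level of Mirlet7c-1, and Mirlet7f-2 had 2.71 times that of Mirlet7f-1. Reads within the mature sequence that such loci share fit both of them, and reads per gene do not show how they were divided. The ratio of reads of Mirlet7c-2 to Mirlet7c-1 ran from 2.5 to 15.1 over 11 libraries, and their log2 levels had an r of 0.606 over 18 libraries and -0.27 over 15. Mir181a-1 had 2.56 times the level of Mir181b-1, and the log2 levels of this pair had an r of 0.974 over 18 libraries and 0.964 over 15, against 0.753 and 0.380 for Mirlet7c-2 and Mirlet7b. Mir1298 and Mir448 both lie in Htr2c, a serotonin receptor gene of neurons and choroid plexus, and Mir1298 had 30.4 times the level of Mir448 per length.

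The hippocampus was checked against microRNAs that mark its cell types. Of 16 neuronal genes in the list, among them the miR-124, miR-9, miR-128, miR-138 and miR-218 genes, 8 were in the table, with 1146 reads in all, and of these only Mir218-2 reached the threshold. Mir219a-2 and Mir338, which mark oligodendrocytes, held 5907 reads, 5887 of them Mir219a-2. Mir155 was the only one of 5 myeloid and lymphoid genes in the table, with 40 reads, and Mir126a the only one of 3 vascular genes, with 55. The lists for red blood cells (3 genes) and choroid plexus (2 genes) had no entry. Levels of a precursor of tRNA size need not follow the mature microRNA, so a low precursor says little about the cell type.

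MicroRNA entries took 0.00430 to 0.283% of the reads of a library. The share was 0.112, 0.00584, 0.154, 0.0345 and 0.190% in the WT shCT mice and 0.0106, 0.265, 0.251 and 0.168% in the WT shRTP801 mice. It was 0.283, 0.261 and 0.251% in the 5xFAD shCT mice and had a lowest value of 0.00430, a median of 0.0981 and a highest of 0.197% in the 5xFAD shRTP801 mice. The 3 5xFAD shCT libraries thus lay above all 5 WT shCT and all 6 5xFAD shRTP801 libraries and overlapped those of WT shRTP801. The share of reads in entries named as snoRNA lay the same way, at 4.78 to 6.03% in 5xFAD shCT mice, against at most 4.39% in WT shCT, 3.95% in 5xFAD shRTP801 and 4.97% in WT shRTP801 mice, and its part in the microRNA share was not tested. Wilson 95% intervals were narrow (0.281 to 0.285% in 5xFAD shCT 1 and 0.00401 to 0.00460% in 5xFAD shRTP801 7) and cover counting error only.

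With the control shRNA, the mean share was 0.265% ± 0.0161 (SD, n = 3) in 5xFAD mice and 0.0991% ± 0.0779 (SD, n = 5) in WT mice. With shRTP801 it was 0.0978% ± 0.0686 (SD, n = 6) in 5xFAD mice and 0.174% ± 0.117 (SD, n = 4) in WT mice. Without the 3 libraries set apart, these means were 0.265, 0.122, 0.117 and 0.228%. The 6 entries in another small RNA gene ranked the groups alike, with means of 0.158, 0.0394, 0.0386 and 0.0979%. The 40 remaining entries had means of 0.0181% ± 0.00484, 0.0119% ± 0.00812, 0.0110% ± 0.00667 and 0.0109% ± 0.00772 (SD) in the same sequence of groups, and their ranges overlapped in all pairs of groups. No test was run on these sums, since the entries were chosen on the same libraries.

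**Figure D3:**
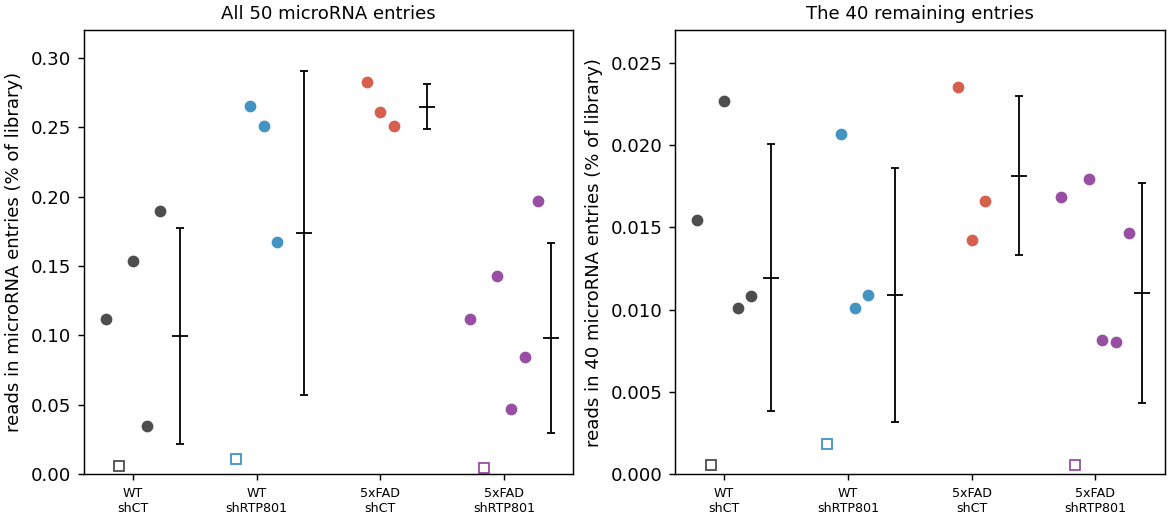
Share of the reads of each library (%, vertical axes) in all 50 microRNA entries (left) and in the 40 remaining entries (right), by group, with 1 point per mouse and the mean ± SD beside it. Open squares are the 3 libraries with less than 1% mitochondrial tRNA. On the left the 3 5xFAD shCT libraries sit at 0.251 to 0.283%, above every WT shCT and 5xFAD shRTP801 library, whereas on the right the groups overlap.

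The 5xFAD genotype was compared first, in mice with the control shRNA. No entry passed the test between 5xFAD shCT and WT shCT mice: limma on log2(signal + 1) called 0 of 1598 entries at an adjusted p below 0.05 (0%) and 0 of the 50 microRNA entries. At an unadjusted p below 0.05 stood 44 entries (2.75%) and 3 of the 50. The differences of 47 of 50 microRNA entries lay above 0 with a median of 1.78 on the log2 scale, but the median over all 1598 entries was itself 1.11. With each library scaled to its microRNA reads, 33 of 50 lay above 0 with a median of 0.56, but without the 3 libraries set apart only 11 of 50 did so on that scale, with a median of -0.57 against -0.93 over all entries. With edgeR on recovered reads 41 lay above 0 with a median of 0.59. In each of the 4 comparisons and in the interaction, edgeR and DESeq2 called 0 of the 50 as well.

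Mir29c had the lowest p. Its level was 6.32, 0, 8.84, 1.49 and 0.891 RPM in WT shCT mice and 15.6, 6.30 and 20.3 in 5xFAD shCT mice. The 5xFAD shCT mouse with the lowest level thus fell among the WT shCT mice on this scale, while on the deposited signal the groups did not overlap. The fitted log2 difference was 3.33 ± 1.48 (SE), with an unadjusted p of 0.0386 and an adjusted p of 0.526 by limma, and 2.11 ± 1.03 without the 3 libraries.

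Mir26a-2, from an intron of the phosphatase gene Ctdsp2, was near the limit of detection, with 307 reads in all. WT shCT mice had 1.15, 0, 0.938, 0.144 and 0.119 RPM and 5xFAD shCT mice 1.91, 1.06 and 1.47. Only 1 of the WT shCT mice was above the lowest 5xFAD shCT mouse. The log2 difference was 2.48 ± 1.15 (limma, unadjusted p of 0.0465, adjusted p of 0.526).

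Mir1957a lay the other way. Its level was 2.29, 3.23, 1.14, 4.23 and 0.386 RPM in WT shCT mice and 0.488, 0.303 and 0.701 in 5xFAD shCT mice. It was also the entry with a higher mean level in the 3 libraries set apart. The log2 difference was -1.91 ± 0.88 (limma, unadjusted p of 0.0460, adjusted p of 0.526) and -1.50 ± 0.70 without those libraries. Mir24-1 and Mir8114 followed with log2 differences of 2.56 ± 1.32 and 2.33 ± 1.23 and the same adjusted p.

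Mir5121, the most abundant entry, was at 324, 0, 407, 21.9 and 1107 RPM in WT shCT mice and at 1342, 1717 and 1551 in 5xFAD shCT mice. All 3 5xFAD shCT mice were above all 5 WT shCT mice on this scale, with means of 1537 ± 188 and 372 ± 449 (SD), but on the deposited signal the groups overlapped. The log2 difference of the signal was 5.20 ± 3.49 (limma, adjusted p of 0.526), and 2.72 ± 1.19 without the 3 libraries, where the level of 0 in WT shCT 5 is left out. Snord33, which shares bases with it, had a log2 difference of 5.01 ± 3.54 with the same adjusted p.

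On the deposited signal, 5 of the 50 entries were higher in every 5xFAD shCT mouse than in every WT shCT mouse (Mir29c, Mir5099, Mir218-2, Mir7-1 and Mir26a-2), against 2.07% of all 1598 entries. In RPM only Mir5121 and Mir5099 of the 50 did so, against 3.38% of all entries. Relative to the microRNA reads of the library 0 of the 50 did so (0.688% of all entries), and Mir6240 was the 1 entry of the 50 that was lower in every 5xFAD shCT mouse, against 4.88% of all entries. Mir218-2, from an intron of the axon guidance gene Slit3, had means of 1.17 ± 0.969 and 2.71 ± 0.827 RPM (SD) in WT shCT and 5xFAD shCT mice. Mir7-1, from an intron of Hnrnpk, had means of 0.768 ± 0.583 and 2.18 ± 0.727. These counts depend on the scale and describe the libraries.

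Lists of related microRNAs had 0 members called in each. All 9 let-7 entries had log2 differences above 0 between 5xFAD shCT and WT shCT mice (median 1.43, against 1.11 over all entries), and 7 of 9 with edgeR (median 0.21) and relative to microRNA reads (median 0.19). Summed let-7 levels ran from 0.151 to 62.3 RPM in WT shCT and from 28.2 to 58.3 in 5xFAD shCT mice and overlapped. The 4 miR-29 and 2 miR-181 entries had a median of 2.16, with 6 of 6 above 0, and no miR-30 gene of that list reached the threshold. The 4 entries of a wider neuron-enriched list that also holds the miR-7 and miR-129 genes (Mir218-2, Mir7-1, Mir7b and Mir129-1) had a median of 1.63, and the 4 of the imprinted Dlk1-Dio3 cluster (Mir431, Mir667, Mir300 and Mir370) a median of 1.44. Relative to microRNA reads, 2 of 4 were above 0 in each of the latter lists. Mir219a-2 of oligodendrocytes had a log2 difference of 2.22 and means of 12.2 ± 11.6 and 19.4 ± 9.21 RPM.

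**Figure D4:**
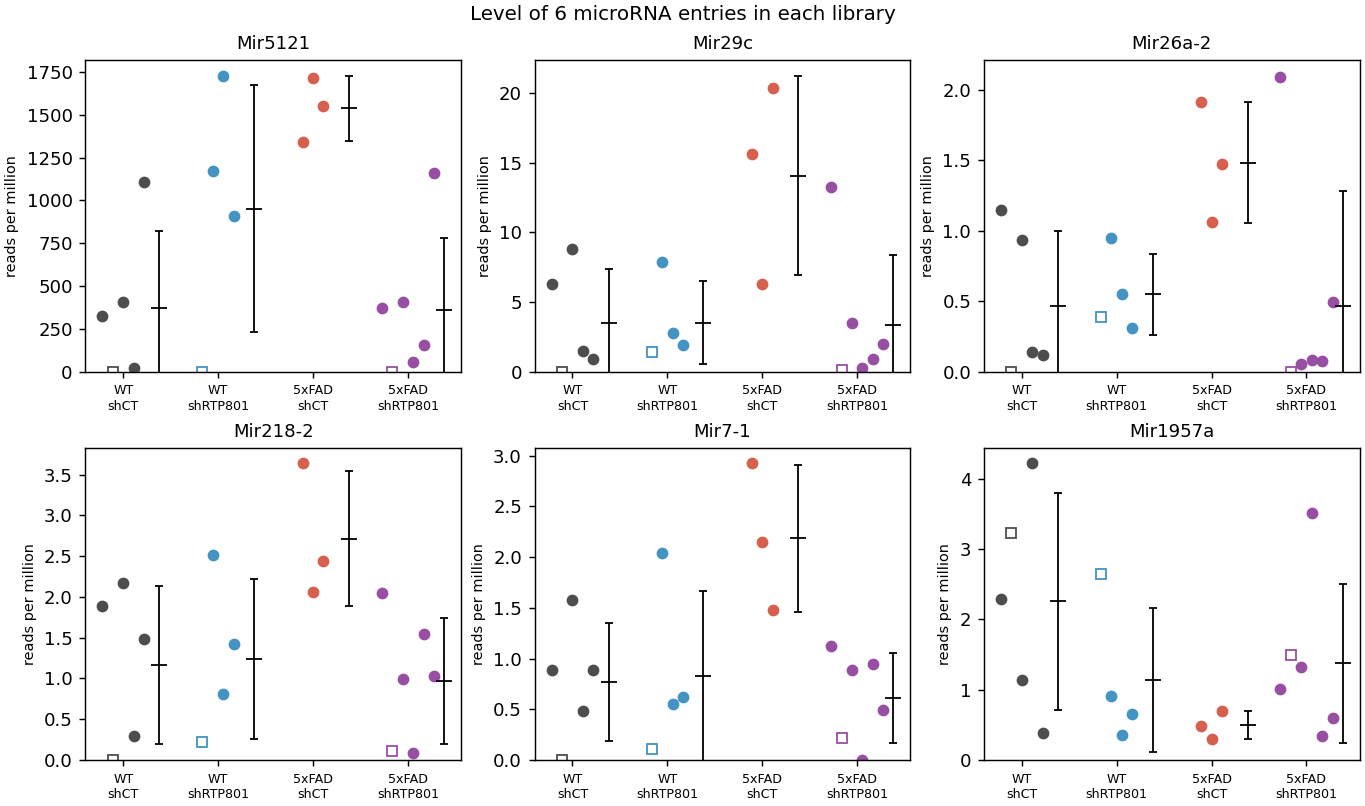
Level of 6 microRNA entries (RPM, vertical axes) by group, with 1 point per mouse and the mean ± SD beside it, lower ends drawn no lower than 0. Open squares are the 3 libraries with less than 1% mitochondrial tRNA. In Mir5121, Mir218-2 and Mir7-1 the 3 5xFAD shCT mice lie above all 6 5xFAD shRTP801 mice, and in Mir1957a they lie among the lowest.

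The shRNA against RTP801 was then compared with the control shRNA in 5xFAD mice. Again limma called 0 of 1598 entries (0%) and 0 of the 50, while 20 entries (1.25%) and 4 of the 50 had an unadjusted p below 0.05. The differences of 3 of the 50 microRNA entries lay above 0 and the others below it, with a median of -1.65 against -0.64 over all entries. Relative to the microRNA reads, 22 of 50 lay above 0, with a median of -0.13, and without the 3 libraries 35 of 50, with a median of 0.56 against 1.32 over all entries, so the direction of many entries depended on the scaling. This comparison shares the 5xFAD shCT mice with the one before it.

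Mir26a-2 had the lowest p, with a log2 difference of -3.0 ± 1.12 (limma, unadjusted p of 0.0158, adjusted p of 0.746). In 5xFAD shRTP801 mice its level had a lowest value of 0, a median of 0.0800 and a highest of 2.09 RPM, against 1.06 to 1.91 in 5xFAD shCT mice. Mouse 2 held the highest value of either group, and the other 5 treated mice were below all 3 5xFAD shCT mice.

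For Mir29c, the 5xFAD shRTP801 mice had 0.106, 1.46 and 13.3 RPM as lowest, median and highest values, against 6.30 to 20.3 in 5xFAD shCT mice. Mouse 2 was again the highest of its group and overlapped the 5xFAD shCT mice. The log2 difference was -3.42 ± 1.44 (limma, unadjusted p of 0.0295, adjusted p of 0.746) and -2.91 ± 0.98 without the 3 libraries. Mir24-1, at -2.85 ± 1.28, and Mir129-1, at -2.11 ± 0.97, were the other entries with an unadjusted p below 0.05, and Mir181b-1 followed at -2.78 ± 1.31. Mir24-1 rested on 257 reads and Mir129-1 on 229.

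Mir5121 had 0, 263 and 1158 RPM as lowest, median and highest values in 5xFAD shRTP801 mice, all below the 1342 of the lowest 5xFAD shCT mouse. Its log2 difference was -4.81 ± 3.38 (limma, adjusted p of 0.746) and -2.74 ± 1.14 without the 3 libraries. Snord33 had -4.65 ± 3.43 with the same adjusted p. On the deposited signal, 6 of the 50 entries were lower in every 5xFAD shRTP801 than in every 5xFAD shCT mouse (Mir5121, Mir3535, Mir181a-1, Mirlet7b, Mir218-2 and Mir7-1), against 4.07% of all entries. In RPM 4 of the 50 did so, against 3.38% of all entries. Relative to microRNA reads 0 of the 50 were lower in this way (0% of all entries) and 3 were higher, namely Mir1298, Mir7068 and Mir1957a, against 16.3% of all entries.

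Mir3535 had 459 to 869 RPM in 5xFAD shCT mice and a lowest value of 3.61, a median of 273 and a highest of 439 in 5xFAD shRTP801 mice. Mir1983, which holds the tRNA-Ile-TAT gene, had 41.7, 29 and 11.4 RPM in 5xFAD shCT mice. In 5xFAD shRTP801 mice it had 8.37, 15.9 and 37.7 as lowest, median and highest values, so the ranges of the groups overlapped in large part. Mir1298 had means of 16.3 ± 7.27 and 20.8 ± 13.5 RPM (SD) in 5xFAD shCT and 5xFAD shRTP801 mice. The 9 let-7 entries all had log2 differences below 0 (median -1.47), but 5 of 9 were above 0 relative to microRNA reads (median 0.27), and 0 were called.

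In WT mice the microRNA entries and all entries had like medians under the shRNA. Between WT shRTP801 and WT shCT mice, limma called 0 of 1598 entries (0%) and 0 of the 50, with 18 entries (1.13%) and 0 of the 50 at an unadjusted p below 0.05. The median over the 50 entries was 0.45 and over all entries 0.46, with 41 of 50 above 0, but edgeR placed 13 of 50 above 0. Mir1957a had the lowest p of the microRNA entries, at a log2 difference of -1.0 ± 0.81 (limma, adjusted p of 0.979). Its levels were 2.64, 0.902, 0.348 and 0.657 RPM in WT shRTP801 mice, and the highest was the library set apart. Mir3547, at -1.16 ± 0.99, Mir6240, at -0.77 ± 0.67, Mir26a-2, at 1.12 ± 1.06, and Mir29c, at 1.27 ± 1.36, followed. In 0 of the 50 entries did the groups not overlap, against 0.688% of all entries.

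Mir5121 was at 0.551, 1173, 1729 and 909 RPM in WT shRTP801 mice, of which the first is the library set apart. WT shCT mouse 15, at 1107, lay among the other 3, and the remaining WT shCT mice were below them. The mean was 953 ± 721 (SD, n = 4), against 372 ± 449 (SD, n = 5) in WT shCT mice. Mir5099 was at 0, 7.88, 7.16 and 9.03 RPM in WT shRTP801 mice, and at 1.63, 0, 3.31, 0.336 and 2.85 in WT shCT mice.

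The genotypes were last compared in mice with the shRNA against RTP801. Between 5xFAD shRTP801 and WT shRTP801 mice, limma called 0 of 1598 entries (0%) and 0 of the 50, with 1 entry (0.0626%) and 0 of the 50 at an unadjusted p below 0.05. The median was -0.36, with 10 of 50 above 0, against -0.15 over all entries, and in RPM 21 of 50 lay above 0. Mir129-1 had the lowest p of the 50, at a log2 difference of -1.46 ± 0.89, followed by Mir26a-2 at -1.64 ± 1.02, Mir181b-1 at -1.41 ± 1.20, Mir29c at -1.36 ± 1.31 and Mirlet7g at -0.75 ± 0.77 (limma, adjusted p of 0.9995 for each). Mirlet7g had means of 1.51 ± 0.942 and 1.85 ± 1.05 RPM (SD) in 5xFAD shRTP801 and WT shRTP801 mice. Groups did not overlap in 0 of the 50 and in 0% of all entries.

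**Figure D5:**
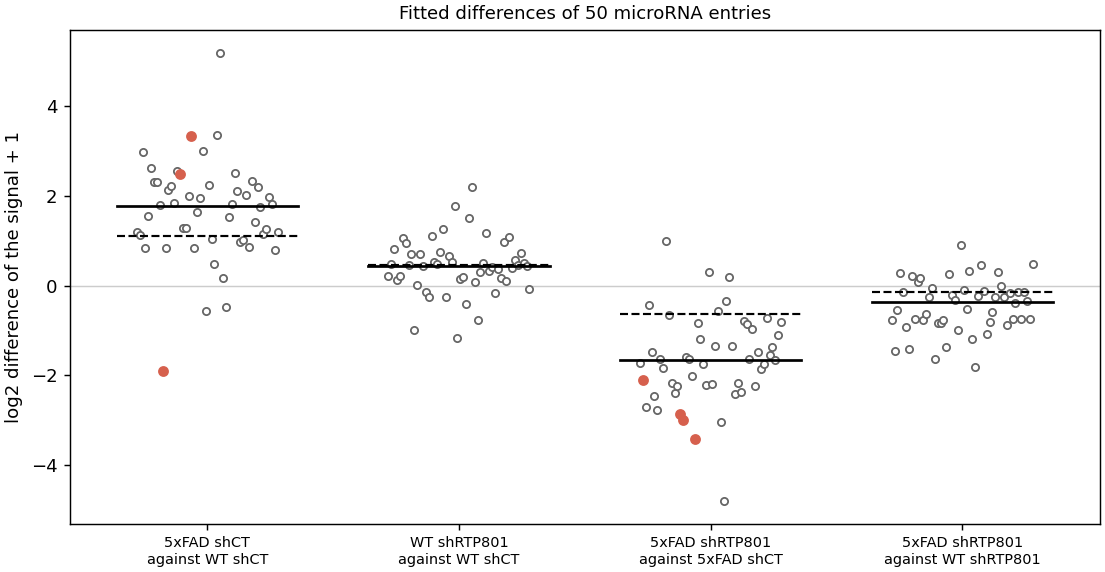
Fitted log2 differences of the signal + 1 (vertical axis) of the 50 microRNA entries in each of the 4 comparisons, 1 point per entry. Filled points have an unadjusted p below 0.05 in limma, solid lines are the median of the 50 and dashed lines that of all 1598 entries. In 5xFAD shCT against WT shCT mice and in 5xFAD shRTP801 against 5xFAD shCT mice both medians lie away from 0 (1.78 and 1.11, then -1.65 and -0.64).

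Whether the shRNA acted differently in 5xFAD and WT mice was asked with the interaction of genotype and shRNA. limma called 0 of 1598 entries (0%) and 0 of the 50, with 54 entries (3.38%) and 2 of the 50 at an unadjusted p below 0.05. Those 2 were Mir26a-2, at -4.12 ± 1.54 (unadjusted p of 0.0162), and Mir29c, at -4.69 ± 1.98 (unadjusted p of 0.0303), both with an adjusted p of 0.614 by limma. Mir181b-1 at -3.73 ± 1.81, Mir8114 at -3.21 ± 1.65 and Mir129-1 at -2.59 ± 1.34 followed, and Mir5121 was at -7.02 ± 4.65. The interaction of Mir5121 was -4.53 without WT shCT 5 and -9.68 without WT shRTP801 4, and without all 3 libraries it was -5.13 ± 1.65 (limma, unadjusted p of 0.00678, adjusted p of 0.127). The median over the 50 entries was -2.11 and over all entries -1.22. The shRNA differences of Mir29c were 1.27 in WT and -3.42 in 5xFAD mice, and those of Mir26a-2 were 1.12 and -3.0. The WT differences rested on WT shCT 5, in which both were at 0: without it they were 0.045 for Mir29c and 0.46 for Mir26a-2, and without all 3 libraries 0.27 and 0.49.

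One setting, chosen after seeing the data, called microRNA entries. With the 3 libraries left out and each library scaled to its microRNA reads, limma called 474 of 1598 entries (29.7%) and 6 of the 50 for the interaction. These were Mir1298 (log2 interaction 4.06, adjusted p of 0.0310), Mir448, Mir1957a, Mir6240, Mirlet7a-1 and Mirlet7c-2, all above 0, while the median of all entries was 1.92. On this scale a library with more Mir5121 reads has lower values of every other entry, and the part of this in the calls was not tested. Without the 3 libraries but on the deposited signal, 0 of the 50 were called and 6 had an unadjusted p below 0.05.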

How the data were processed

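Hydro-tRNA-seq libraries of the hippocampi of 18 mice were used. Per the methods, RNA of 60 to 100 nt was isolated from a gel, hydrolysed and sequenced in a 50 bp paired-end format, and the authors counted reads with tRAX. The deposited values are a signal, read counts divided by a size factor of the library, on mm39 as given in the submitters' processing notes. The version of tRAX and the aligner are not given in the sources used here. In each library 100% of values were whole multiples of the value of 1 read (tolerance 0.001), so counts were recovered from the deposited signal. Near-identical copies (reads within 5%) were counted once, which removed 324 entries from library totals. Such totals ranged from 18126374 to 34488918 reads, and a count of 0 allows up to 3 reads.

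Entries with a mean signal of at least 10 (1598) were compared on log2(signal + 1) with limma 3.58.1 in R 4.3.3, with all 18 libraries in 1 fit of 4 groups, the interaction of genotype and shRNA, Benjamini-Hochberg adjustment over all entries and a threshold of 0.05. All 50 microRNA entries passed this filter, since a sum of 180 is a mean of 10. On recovered counts, edgeR 4.0.16 called 0 entries in all 5 comparisons, and DESeq2 1.42.0 called 1 entry, no microRNA, between 5xFAD shCT and WT shCT mice. Other alternatives were the scaling of libraries, the pseudocount, the filter, a mean-variance trend, keeping every copy and leaving out each library. Named entries are the 10 with the largest share of microRNA reads, averaged over groups, the 5 with the smallest p in each comparison, and members of the lists. The fits were also run on simulated counts in which all libraries shared a common make-up, unlike the libraries here. That run does not show how the fits behave on these data. Tables were handled in Python 3.11.15 with pandas 2.3.3 and numpy 2.4.6, and figures drawn with matplotlib 3.10.9. The entries and lists were chosen with earlier results of these data known. Labels do not say whether libraries were prepared in batches.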

Additional observations from a re-analysis of the deposited data

Results flagged for a closer look

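In 6 of 60 groups of libraries examined, over 20 values, 1 library lay far from the others of its group by Dixon's test, where chance gives about 1 in 20 groups, or 3. That rate is for independent, normally distributed values, whereas the entries here share libraries. The 5xFAD shCT group, with 3 libraries, was too small and was not examined. In 5xFAD shRTP801 mice, mouse 2 was apart for Mir26a-2, at 2.09 RPM against 0.496 in the next library, and for Mir29c, at 13.3 against 3.53. Mouse 19 of the same group was apart for Mir5121, at 1158 against 407 RPM, and for Mir3547, at 5.21 against 0.918. Mouse 12 of that group was apart for Mir1957a, at 3.51 against 1.49. In WT shCT mice, mouse 6 was apart for Mir24-1, at 1.38 against 0.296 RPM.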

How the results depend on the processing

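Of 165 alternatives of the number of microRNA entries called, 164 gave 0, as in the reported test. The interaction without the 3 libraries of low mitochondrial tRNA, relative to microRNA reads, gave 6. The setting was added after seeing the data, and the cause was not tested. Of 905 alternatives of the log2 differences of Mir5121 and of the 5 entries with the smallest p in each comparison, 894 kept their direction. Most of these entries were picked for a small p in the same data, and many alternatives leave out only 1 library, so a kept direction adds little. None of the differences, whether kept or turned, had an adjusted p below 0.05 in any setting. The 11 that turned are given next. Between WT shRTP801 and WT shCT mice, Mir29c was at -0.13 with edgeR, and without the 3 libraries at -0.28 with edgeR and -0.86 relative to microRNA reads, and Mir26a-2 at -0.21 and -0.57 in these 2 settings. Between 5xFAD shRTP801 and WT shRTP801 mice without the 3 libraries, edgeR gave 0.031 for Mir26a-2 and 0.046 for Mir29c, and scaling to microRNA reads gave 0.23 for Mir29c and 0.79 for Mirlet7g, which was at 0.16 on that scale with all libraries. The interaction of Mir129-1 was 0.71 without the 3 libraries relative to microRNA reads. The log2 ratio of mean microRNA shares was 1.42 between 5xFAD shCT and WT shCT mice (1.11 to 1.79 with 1 library left out), 0.81 between WT shRTP801 and WT shCT mice (0.50 to 1.20), -1.44 between 5xFAD shRTP801 and 5xFAD shCT mice (-1.76 to -1.19) and -0.83 between 5xFAD shRTP801 and WT shRTP801 mice (-1.22 to -0.55). No paired analysis was possible because the groups share no mouse number. Of the 50 entries, 37 were at 0 in at least 1 library, but 44 were detected in all of the 15 others than the 3, and the lowest rested on few reads (209 in all for Mir7b).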
